A study of Homo sapiens with 3 samples.

Results

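The PAX9, NKX2-1 and SLC25A21 locus is the stretch chr14:36400000-37700000 (hg38) of 1.3 Mb, and its members were all ARID1B peaks listed there. It held 10 of the 1792 peaks of replicate 1 and 7 of the 1820 peaks of replicate 2, which made 7 of the 1313 regions shared by both replicates. The peaks came from chromatin immunoprecipitation followed by sequencing (ChIP-seq) of ARID1B in HEK293FRT cells. These derive from HEK293, a human cell line of embryonic kidney origin. The labels give no treatment, and no genotype beyond the name of the line, HEK293FRT. The series comprised 2 ARID1B ChIP replicates and 1 input sample, which was not analysed here. Whether each replicate was a culture of its own is not stated in the labels, so the spread between them may be technical. The locus was chosen by the position and the scores of its peaks in these lists, so its number of peaks, their spacing and their scores are given as a description, with no test.

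ARID1B carries a DNA-binding ARID domain and belongs to the BAF (SWI/SNF) complexes, which use ATP to slide and evict nucleosomes, and these complexes are known to act at promoters and at distal enhancers. The locus joins 4 genes of developmental transcription factors. NKX2-1 and NKX2-8 encode homeodomain proteins, the first known from thyroid, lung and ventral forebrain. PAX9 encodes a paired-box factor of the pharyngeal pouches, teeth and skeleton, and FOXA1 encodes a forkhead pioneer factor of endoderm and hormone-responsive epithelia. Between PAX9 and FOXA1 lie SLC25A21, which encodes a mitochondrial carrier of oxodicarboxylates, and MIPOL1, which encodes a coiled-coil protein. In the mouse, conserved non-coding elements in and near Slc25a21 are known to drive expression in parts of the Pax9 pattern.

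By the RefSeq annotation of GRCh38.p14, the assembly of hg38, the locus runs as follows. NKX2-1 (chr14:36516397-36520232) and NKX2-8 (chr14:36580004-36582614) are read on the minus strand. PAX9 (chr14:36657568-36679362) is read on the plus strand. SLC25A21 (chr14:36677921-37172606) spans 494.7 kb on the minus strand, so that it is transcribed towards PAX9, and the 3′ parts of both genes overlap by 1442 bp. MIPOL1 (chr14:37197937-37552361) spans 354 kb on the plus strand, and FOXA1 (chr14:37589552-37595249) is read on the minus strand. A 7th protein-coding gene, TTC6, reaches into the window at its far edge. The annotation used here gives no exons, so exons and introns were not separated.

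The 250 bases before the annotated start of each of the 4 transcription factor genes are shown because no peak of either replicate lay within 1000 bp of any end of these genes, and the peaks described next lie away from them. Sequences are from RefSeq (GRCh38.p14), 5′ to 3′ on the strand of the gene, and capitals mark matches to the GC box (GGGCGG) and the homeobox core (ATTA) on either strand. For NKX2-1 and PAX9, which have 2 annotated starts each, the outer start was taken.
PAX9, plus strand, chr14:36657318-36657567: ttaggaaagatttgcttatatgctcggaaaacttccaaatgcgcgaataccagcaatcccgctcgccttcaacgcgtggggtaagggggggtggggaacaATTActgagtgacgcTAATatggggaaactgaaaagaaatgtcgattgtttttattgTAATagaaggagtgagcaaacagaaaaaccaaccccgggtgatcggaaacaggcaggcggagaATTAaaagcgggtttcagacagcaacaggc
NKX2-1, minus strand, chr14:36520233-36520482: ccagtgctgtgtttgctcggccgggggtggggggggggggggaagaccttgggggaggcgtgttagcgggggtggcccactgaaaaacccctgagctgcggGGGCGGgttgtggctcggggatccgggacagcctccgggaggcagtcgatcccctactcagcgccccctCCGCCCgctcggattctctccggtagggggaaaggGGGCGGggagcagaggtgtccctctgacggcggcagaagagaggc
NKX2-8, minus strand, chr14:36582615-36582864: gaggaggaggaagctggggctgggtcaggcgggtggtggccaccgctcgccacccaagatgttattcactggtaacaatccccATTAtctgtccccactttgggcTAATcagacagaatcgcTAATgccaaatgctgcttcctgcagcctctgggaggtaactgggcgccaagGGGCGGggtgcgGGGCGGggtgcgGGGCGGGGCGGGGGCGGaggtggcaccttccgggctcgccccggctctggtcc
FOXA1, minus strand, chr14:37595250-37595499: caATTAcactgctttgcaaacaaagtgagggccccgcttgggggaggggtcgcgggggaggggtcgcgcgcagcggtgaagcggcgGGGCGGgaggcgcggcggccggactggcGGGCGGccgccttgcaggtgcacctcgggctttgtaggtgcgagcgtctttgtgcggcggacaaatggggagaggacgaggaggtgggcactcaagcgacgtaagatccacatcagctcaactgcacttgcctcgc

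The sequence before the outer PAX9 start held 4 homeobox cores and no GC box. Its GC content was 46.8%, below the median of 58% over the 35116 promoter windows. The inner PAX9 start, not shown, differed, with 2 GC boxes, no homeobox core and a GC content of 54.8%. The NKX2-8 sequence held 5 GC boxes, some of them overlapping, and 3 homeobox cores, and its GC content was 66%. The outer NKX2-1 start had 3 GC boxes and no homeobox core, at a GC content of 70.8%. The inner NKX2-1 start, not shown, had no GC box and 2 homeobox cores, at 49.6%. FOXA1 had 2 GC boxes and 1 homeobox core. A GC box stood before 5 of the 8 annotated starts of the 6 member genes, where 42.6% of all 35116 windows of this length held one, and a homeobox core before 4 of 8, where 47.4% held one. No match stood before any of the 8 starts for the AP-1 motif TGANTCA (6.57% of all windows), the TEAD motif GGAATG (11.9%), the E-box CACGTG (6.34%), the forkhead motif TTGTTTAC (0.846%) or the palindromic NFI motif, TTGGC and GCCAA set 5 bases apart (0.0285%). Both strands were searched for all 7 motifs. A match or its absence describes these letters in this window and nothing more. The sequences under the peaks themselves are not shown here.

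The highest-scoring ARID1B peaks of the locus lay deep inside SLC25A21. Region 3, numbered from the PAX9 side, was at chr14:36834938-36835670 and scored 902 in replicate 1 and 785 in replicate 2. The score is a whole number per peak given by the authors, whose scale is not stated, so it was used to order peaks within a list and, between the lists, as a ratio that describes a pair of peaks and does not measure enrichment. Ranked from the highest, these peaks stood 4th of 1792 in replicate 1 and 9th of 1820 in replicate 2, and each was the first of all peaks on chromosome 14 in its list. They were broad as well, at 686 and 671 bp, where the median widths of the lists were 290 and 300 bp. The region lay 337 kb downstream of the annotated start of SLC25A21, at 68.2% of the gene's length. It was 173 kb from the inner and 177 kb from the outer annotated start of PAX9, and 759.6 kb from the start of FOXA1. The start of PAX9 was thus closer to the strong region than that of SLC25A21, the gene holding it. This was not particular to PAX9. The starts of NKX2-8 (252 kb) and NKX2-1 (315 kb, outer start) were closer as well. Those of MIPOL1 (362 kb) and FOXA1 were farther.

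The other 5 shared regions inside SLC25A21 were spread along the gene. Region 1 (chr14:36797622-36798185) lay 118 kb beyond the 3′ end of PAX9 and scored 155 in replicate 1 and 219 in replicate 2. Region 2 (chr14:36820226-36820525), between the first and the strong region, was the weakest of the shared regions, with scores of 33 and 42 in replicates 1 and 2. These 3 regions stood within 38.0 kb.

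Region 4 (chr14:36905300-36905746) scored 83 and 67 in replicates 1 and 2, close to the list medians of 74 and 75. Region 5 (chr14:36955889-36956503) was the second strongest of the locus, with scores of 294 and 328. It ranked 72nd in replicate 1 and 68th in replicate 2, at 43.7% of the gene's length from its start. Region 6 (chr14:37116950-37117307), the nearest to the start of SLC25A21 at 55.3 kb, scored 119 and 79. Of the 6 regions inside the gene, 4 were closer to its 3′ end beside PAX9 and 2 were closer to its own start. None reached an end of the gene.

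Region 7 stood alone, outside every annotated gene. It lay at chr14:37567018-37567416 in the interval between the 3′ ends of MIPOL1 and FOXA1, which face each other, 14.7 kb past the end of MIPOL1 and 22.1 kb from the end of FOXA1. Its scores were 220 in replicate 1 and 114 in replicate 2. The start of FOXA1 was 27.8 kb away, the shortest distance between a shared region and the start of any member gene.

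**Figure D1:**
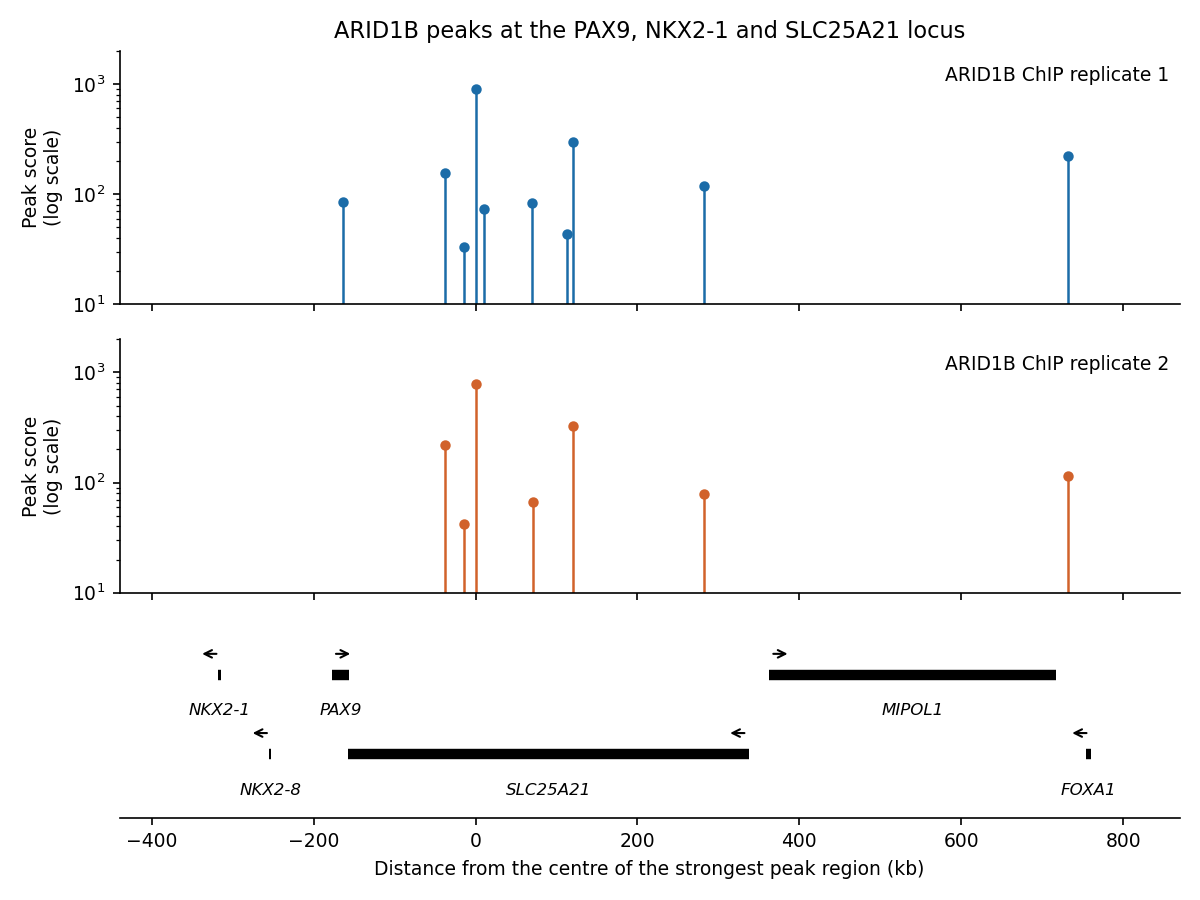
ARID1B peaks of replicate 1 (top) and replicate 2 (middle) by position, as the distance in kb from the centre of the strongest region, with the authors' peak score on a log axis; below are the 6 member genes, with arrows at the start pointing in the direction of transcription. The highest peak, with scores of 902 and 785, lies inside SLC25A21, and no peak lies at NKX2-1, NKX2-8 or within MIPOL1.

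Replicate 1 had 3 further peaks that replicate 2 lacked. The first, at chr14:36671189-36671498 with a score of 85, was the one peak inside PAX9, 7.86 kb upstream of the gene's 3′ end, 9.33 kb downstream of its inner start and 6.42 kb from the 3′ end of SLC25A21. The nearest replicate 2 peak was 126 kb away. The second, at chr14:36845723-36846080 with a score of 74, lay 10.1 kb from the strong replicate 2 peak inside SLC25A21. It was 2.86 kb from LOC107984668, an uncharacterised long non-coding RNA gene within SLC25A21. The third, at chr14:36948229-36948438 with a score of 43, lay 7.45 kb from the replicate 2 peak of region 5. So 1 peak of 10 in replicate 1 and none of 7 in replicate 2 fell inside PAX9, and the call inside PAX9 rests on 1 replicate.

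Region 5 and the third of these peaks flank MIR4503, the one microRNA gene of the window (chr14:36952309-36952391, minus strand, within SLC25A21). MicroRNAs pair with messages mainly through their seed, so the mature sequence is shown with the seed, bases 2 to 8, in capitals (RefSeq, GRCh38.p14, chr14:36952358-36952379).
hsa-miR-4503: uUUAAGCAggaaauagaauuua
The replicate 2 peak of region 5 was 3.50 kb from the microRNA gene and the replicate 1 peak of that region 3.55 kb. None of the 14 genes of the window that do not code for protein, among them 7 long non-coding RNA genes and 6 pseudogenes, had the centre of a peak inside it in either replicate.

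NKX2-1 and NKX2-8 had no peak nearby. The nearest peak of replicate 1 to the outer start of NKX2-1, the one inside PAX9, was 151.0 kb away, and the nearest of replicate 2 was 277 kb away. For NKX2-8 the distances were 88.6 kb in replicate 1 and 215 kb in replicate 2. MIPOL1 held no peak in either replicate over its 354 kb. The stretch without a shared region that contains the whole of MIPOL1 was 449.7 kb long, from region 6 to region 7. Within 1000 bp of an end of a member gene lay 0 of the 7 shared regions, where 12.5% of the 1312 shared regions on annotated chromosomes lay that close to some protein-coding gene's end. Counted over the ends of all protein-coding genes, the locus number was also 0, the nearest such end being 14.7 kb from region 7. The share is genome-wide and not matched for the number of gene ends in the window. With 7 regions at that share, fewer than 1 would be due, so the count of 0 does not set the locus apart. No shared region lay within 10000 bp of an end of a member gene either.

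Both replicates found the same places except for those 3 peaks. In replicate 2, 7 of 7 locus peaks overlapped a replicate 1 peak by at least 1 bp (exact Clopper-Pearson 95% interval 59.0 to 100%), where 72.4% of all replicate 2 peaks did. In replicate 1 it was 7 of 10 (70%, 34.8 to 93.3), where 73.5% of all replicate 1 peaks did. Both intervals contain the share of the whole list. They cover counting error only, rest on the same 7 pairs and are not a test, since the locus was chosen by these peaks. The 3 peaks of replicate 1 alone scored 43 to 85, and of all 739 replicate 1 peaks in that range of scores 64.8% were shared. The lowest-scoring peak of the locus in replicate 1, with 33, was among the shared.

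The 7 pairs kept nearly the same order by score in both replicates, with a Spearman rho of 0.964 over 7 regions that share their libraries. Replicate 2 scored higher in regions 1, 2 and 5 and lower in regions 3, 4, 6 and 7. The log2 ratio of the scores, replicate 2 over replicate 1, had a median of -0.20 (SD 0.52 over the 7 pairs) and ran from -0.95 in region 7 to 0.50 in region 1. Over all 1305 pairs the median was 0.03 and the SD 0.74. Region 7 stood at rank 150 in replicate 1 and at rank 493 in replicate 2, and region 6 at ranks 453 and 838. The ratios of all 7 pairs lay well inside the range over all pairs, -2.55 to 2.73.

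**Figure D2:**
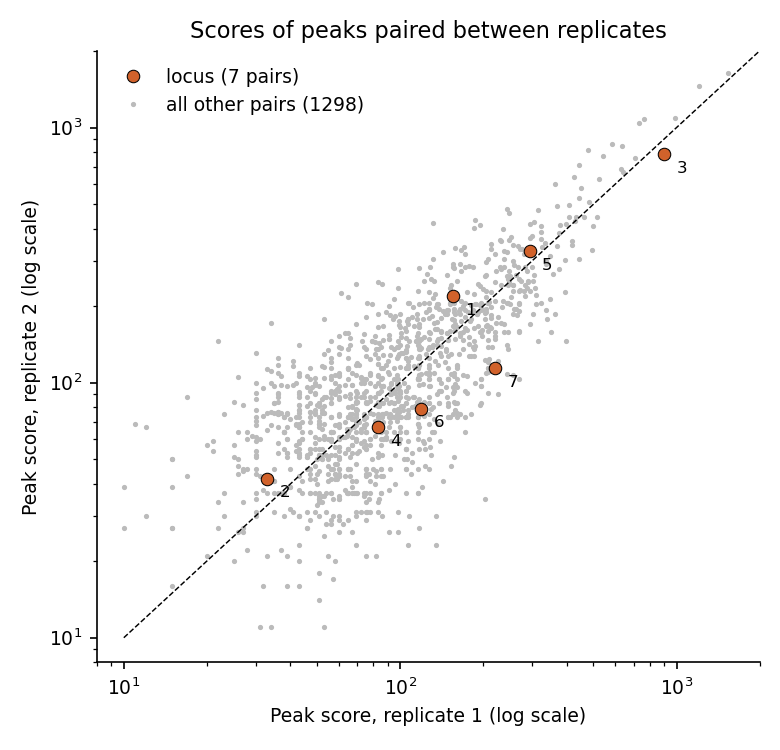
Scores of peaks that paired one to one between the replicates, both axes on a log scale; large points are the 7 pairs of the locus, numbered from the PAX9 side, small points the 1298 other pairs, and the dashed line marks equal scores. Region 3 lies near the top of the cloud and region 7 is the farthest of the 7 from the line.

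The peaks of a pair shared a median of 69% of the bases that either covered, below the median of 79.7% over all 1305 pairs, and the values of the 7 pairs ran from 55.5 to 90.5%. In region 3 they shared 624 bp, or 85.1% of the bases that either covered, and their centres were 54.5 bp apart. In region 7 they shared 90.5% and in region 5 88.6%, while regions 1, 2 and 6 lay between 62.6 and 69%. Region 4 had the least in common, 55.5%, because the replicate 2 peak of 248 bp lay within the replicate 1 peak of 447 bp. The centres were farthest apart in region 1, by 105.5 bp. The median offset of the centres was 54.5 bp in the locus and 24 bp over all 1305 pairs, and 5 of the 7 locus pairs were above that value.

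Broader peaks scored higher. Over the 10 peaks of replicate 1 in the locus, score and width had a Spearman rho of 0.830, and over the 7 of replicate 2 one of 0.964. Over the whole lists the rho was 0.634 in replicate 1 and 0.591 in replicate 2. These values describe the lists, whose depth is unknown.

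**Figure D3:**
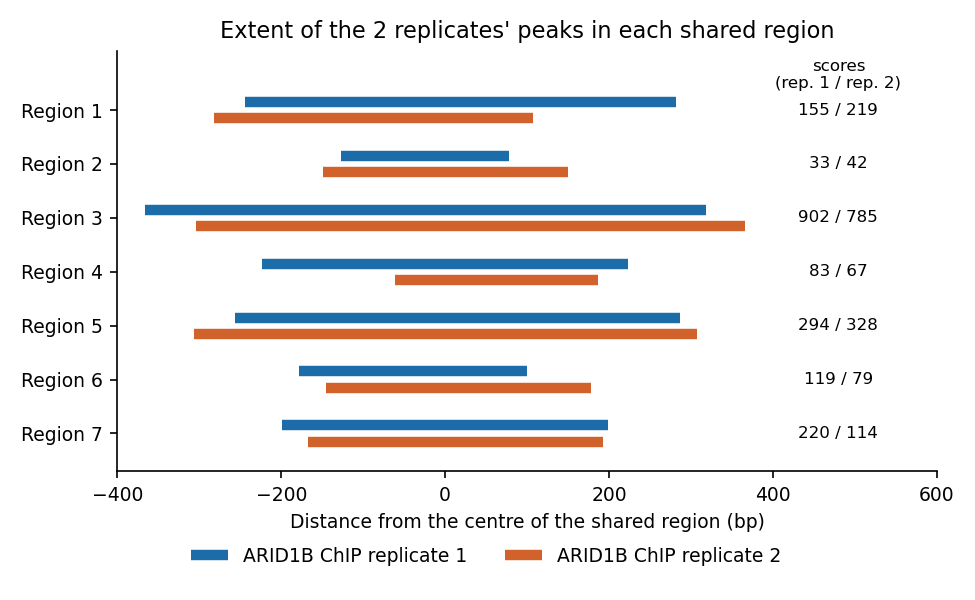
Extent of the replicate 1 and replicate 2 peak in each of the 7 shared regions, as the distance in bp from the centre of the region, with the scores of replicate 1 and replicate 2 at the right. Regions 3 and 5, which score highest, are the broadest, and in region 4 the replicate 2 peak covers part of the replicate 1 peak.

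The spacing of the shared regions was uneven. From the PAX9 side the gaps between neighbours were 22.0, 14.4, 69.6, 50.1, 160.4 and 449.7 kb. The median gap of 59.9 kb compares with 821 kb over all 1288 pairs of neighbouring shared regions on the same chromosome. Joining regions at most 100 kb apart put regions 1 to 5 into 1 cluster of 159 kb, which lay wholly inside SLC25A21. Region 3 had 5 other shared regions within 650 kb of its centre, where the median shared region had 1 and the highest number was 19; 116 of the 1313 regions had at least 5.

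The window held 5.38 shared regions per Mb, and the annotated span of all chromosomes 0.435 per Mb. The edges of the window cut through no group of peaks. Inside it, the first peak was the one in PAX9, 271 kb from the left edge, and the last were those of region 7, 133 kb from the right edge. Outside it, the nearest replicate 1 peak to the left was 1.70 Mb from the edge with a score of 25, and the nearest of replicate 2 was 1.84 Mb away with a score of 140. To the right the next shared region was 12.2 Mb beyond the edge, with scores of 67 and 61.

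SLC25A21 was among the protein-coding genes with the most regions inside. With 6 it tied for 4th place with RAD51B, a gene of DNA recombination repair, AUTS2 and FRMPD4, after GMDS and ZNF608 with 9 each and NKAIN2 with 7. It was the shortest of the 4 that tied, at 494.7 kb, against 863 kb for RAD51B. Of 773 protein-coding genes of at least 300 kb, 615 (79.6%) had no region inside, and only 6 had 6 or more. Per length, SLC25A21 with 1.21 regions per 100 kb stood second of the 773, after GMDS with 1.45. MIPOL1, its neighbour, was among the 615 genes with none.

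**Figure D4:**
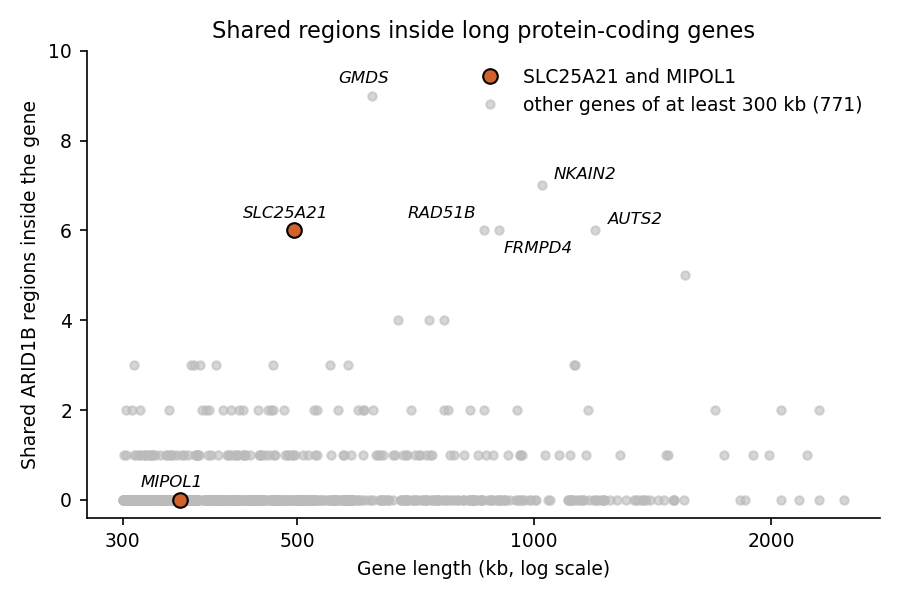
Number of shared ARID1B regions inside each of the 773 protein-coding genes of at least 300 kb, against gene length on a log axis; large points mark SLC25A21 and MIPOL1. SLC25A21 holds 6 regions at 494.7 kb, MIPOL1 none at 354 kb.

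Of the 7 clusters of 5 or more shared regions in the lists, the one in SLC25A21 had the highest-scoring member. Its best region, with 902 and 785, stood beside 707 and 763 in the cluster near ZNF703 and 443 and 306 in that of RAD51B on the same chromosome. The cluster in SLC25A21 had 3.15 regions per 100 kb, where the 6 others ran from 1.94 to 8.45 and 5 of them were denser. ZNF608 was the nearest protein-coding gene of both the sparsest and the densest cluster, and the sparsest lay outside that gene. The median score of the 5 regions of the SLC25A21 cluster was 155 in replicate 1. There the others ran from 83.5 at RAD51B to 221 near ZNF703, and 3 of 6 were higher. In replicate 2 its median was 219, where the others ran from 75.5 to 249.5 and 1 of 6 was higher. All these clusters were chosen for their regions, and the differences were not tested.

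Relatives of the member genes were looked up in the same way, by a shared region inside the gene or within 1000 bp of an end, which 3.26% of all 19866 protein-coding genes had. Of 9 PAX genes 1 had one, PAX5, which encodes a B-cell regulator, with a region 105 kb from its nearest start and scores of 51 and 30. Of 7 NKX2 genes and of 3 FOXA genes none had one. Of 48 genes of SLC25 mitochondrial carriers 4 (8.33%) had one, among them SLC25A21, which was chosen for its peaks; without it the count was 3 of 47 (6.38%). The regions of SLC25A21 lay inside the gene, and those of SLC25A25, SLC25A41 and SLC25A42 lay outside it, within 1000 bp of an end. Of 16 regulators of the thyroid and pharyngeal pouches 2 had one, HOXA3 and GLI3. HOXA3, a third-pouch homeobox gene, had 2 regions (127 and 83 in replicates 1 and 2, and 43 and 55). They counted as inside by the annotated span of HOXA3, at 6.66 and 13.0 kb from its nearest start. GLI3, a Hedgehog effector gene, had 2 regions (75 and 44, and 63 and 38). The shares rest on at most 4 genes each, and the lists were not tested. The share of 3.26% is not matched for gene length, and a longer gene has more room for a region inside. Of the 773 protein-coding genes of at least 300 kb, SLC25A21 and GLI3 (303 kb) among them, 79.6% had no region inside.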

How the data were processed

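ARID1B ChIP-seq was analysed from the peak lists of 2 replicates. The build was hg38 and the tools were MACS2 2.1.2, Bowtie2 2.3.4.1 and bcl2fastq 2.20.0.422, per the submitters' processing notes. The antibody, the settings, the peak threshold, the handling of duplicates and any use of the input are not stated there. The authors deposited 1 list per replicate with a whole-number score per peak of unstated scale. PCR duplicates, if kept, would raise scores. The lists hold no read counts, so depth is unknown.

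Starts were counted from 1. Peaks overlapping by at least 1 bp were shared, and each connected set was 1 region. A peak or region was inside a gene when its centre was. Ranks run from the highest score. Genes and promoters were taken from RefSeq tables of GRCh38.p14 (58961 genes kept; 718 on other sequences left out); transcription starts came from the promoter table, which matched 6 of 6 member genes. Distances, ranks and shares were computed with Python 3.11.15, pandas 2.3.3 and scipy 1.17.1. The functions were tested on simulated peaks. The named genes were the 6 members, genes holding or nearest to a peak, and members of 5 comparison lists with a shared region; non-coding genes near a peak, and genes ranked or clustered beside SLC25A21, were added after their values were seen. The locus, the lists and the motifs were chosen with earlier results of these data known. Alternatives changed the score minimum, overlap, gene end window, joining gap, window and replicates.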

Additional observations from a re-analysis of the deposited data

How the results depend on the processing

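Of 77 values recomputed under the alternatives, 70 were close to the reported value, counts within 1.5 times, and 7 moved. With only the peaks that reach their own list's median score, the cluster inside SLC25A21 had 2 regions instead of 5, because regions 2 and 4 dropped out, the regions per Mb over all chromosomes were 0.215, PAX genes with a region numbered 0, and thyroid and pharyngeal regulators 1. Joining at 50 kb gave a largest cluster of 3. With the peaks of 1 replicate in place of shared regions, the window held 7 to 10, SLC25A21 6 to 8 and the largest cluster 5 to 7, with 0 at member gene ends in both. PAX genes then numbered 1 to 2, PAX9 being reached by replicate 1 alone, and thyroid and pharyngeal regulators 3 to 4. As percentiles within each list, the median of replicate 2 minus replicate 1 was -0.27 points. No paired analysis was possible because the design has 1 ChIP group and no group to pair it with. Depth is unknown, so absence of a peak at NKX2-1, NKX2-8 or MIPOL1 says only that none was listed.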

Other observations

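Region 7, near FOXA1, was the last listed region before a long empty stretch. No peak of either replicate was listed for the next 12.3 Mb of chromosome 14, the 26th longest of 1288 gaps between neighbouring shared regions. On the other side, region 1 was preceded by 2.24 Mb without a shared region, the 380th longest. The 10 replicate 1 peaks of the locus therefore stand alone within a stretch that reaches from 1.70 Mb left of the window to 12.2 Mb right of it.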
